A study of Mus musculus with 3 samples.

Results

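The comparison set the array of Hepa1c1c7 cells transfected with a Cd74 vector against the array of the same cells transfected with a Tmem54 vector, 2 of the 3 samples in the study. Hepa1c1c7 is a mouse hepatoma cell line. The third sample received an empty vector. It enters no difference between the inserts, and its signal is printed beside those of the other 2 arrays. Each vector was measured on 1 array (n = 1), so no value has a replicate, no difference was tested, and the words higher and lower describe these arrays only. Both arrays carry a vector with an insert, so the part of either insert in a difference cannot be told apart. The labels give neither the time after transfection nor whether the vectors were kept stably. The series description names Trib3, Id3 and Atoh8 as genes of interest after Cd74 overexpression.

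Cd74 is the invariant chain, a membrane protein that escorts MHC class II molecules through the secretory pathway and keeps their groove closed until loading. At the cell surface it also binds the cytokine MIF together with Cd44, and a fragment released from its cytosolic end has been linked to NF-kB signalling. Tmem54 is a membrane protein of little known function.

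The inserts themselves were checked first. For Cd74 the probe lies at chromosome 18, 60972075 to 60972132 of build mm9, and its processed signals were 10856 with Cd74, 22.4 with Tmem54 and 26.8 with the empty vector. Its log2 difference, Cd74 minus Tmem54, was 8.99 with an error of 0.30 from the scanner software's model of noise within an array. For Tmem54 the probe lies at chromosome 4, 128788699 to 128788758, with a signal of 19747 on its own array. On the other arrays it was at the level of background, 2.83 with Cd74 and 2.78 with the empty vector. Against the lowest signal called well above background on the Cd74 array, 13.5, the Tmem54 array was at least 1389-fold brighter. Each label therefore matched the insert its array carried.

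The label of the cells was set against markers of hepatocytes. Of the 5 defining markers, 2 were detected, namely Alb, the main plasma protein of the liver, and Afp, its fetal counterpart. Afp had signals of 24693 with Cd74, 26705 with Tmem54 and 25519 with the empty vector, a log2 difference of -0.04. Probes of Ttr, Apoa1 and Hnf4a were not well above background on any of the 3 arrays, and neither were those of Apob and Ahsg. At least 1 probe each of the leukocyte genes Ptprc (3096 against 3461), Csf1r (3001 against 3811) and Itgam (2352 against 2552) was bright, Cd74 against Tmem54, whereas Adgre1, Epcam and Cdh5 were not well above background. For Ptprc this was 1 of 7 probes, and the other 6 were not well above background with both inserts, so its signal rests on 1 probe. The part of other cells in any difference was not tested.

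All 3 arrays lay on the same slide and shared a scan time. Spots well above background were 33250 with Cd74, 33049 with Tmem54 and 33896 with the empty vector, and no spot outside the controls was saturated (0 on each array). The SD between replicate spots of a probe was 0.038 on the log2 scale with Cd74 and 0.036 with Tmem54. Precision is limited by having so few arrays. For most bright genes the model error of a difference was 0.20, and it comes mainly from a preset multiplicative error of 0.1. It does not contain the spread between cultures.

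A difference could be measured for 14580 of the 24933 genes represented, those detected well above background with both inserts. The median difference was 0.02 and the central 90% of genes lay between -0.52 and 0.52, so most genes differed by less than 1.5-fold. A difference of at least 2-fold (1 on the log2 scale) was seen for 311 genes, 2.13% of those measured. Of these, 141 were higher with Cd74 (0.967%) and 170 were lower (1.17%). At least 4-fold differences were seen for 23 genes higher and 31 lower. With genes split by level into 4 equal groups of 3645, the share past 2-fold was 4.72% in the dimmest and 0.439% in the brightest, so most of the 311 lay at low signals. Among 9463 bright genes, whose brighter level reached the median of measured probes, 47 were higher (0.497%) and 61 lower (0.645%) by at least 2-fold, together 1.14%. The limit, a signal of 403 with Cd74 or 425 with Tmem54, had to be reached on 1 array only. A gene could thus pass through the array where it was high and be dim on the other. Counted over 29467 probes in place of genes, 241 were higher (0.818%) and 280 lower (0.95%). Over all measured genes 54% lay above 0 and 46% below.

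**Figure D1:**
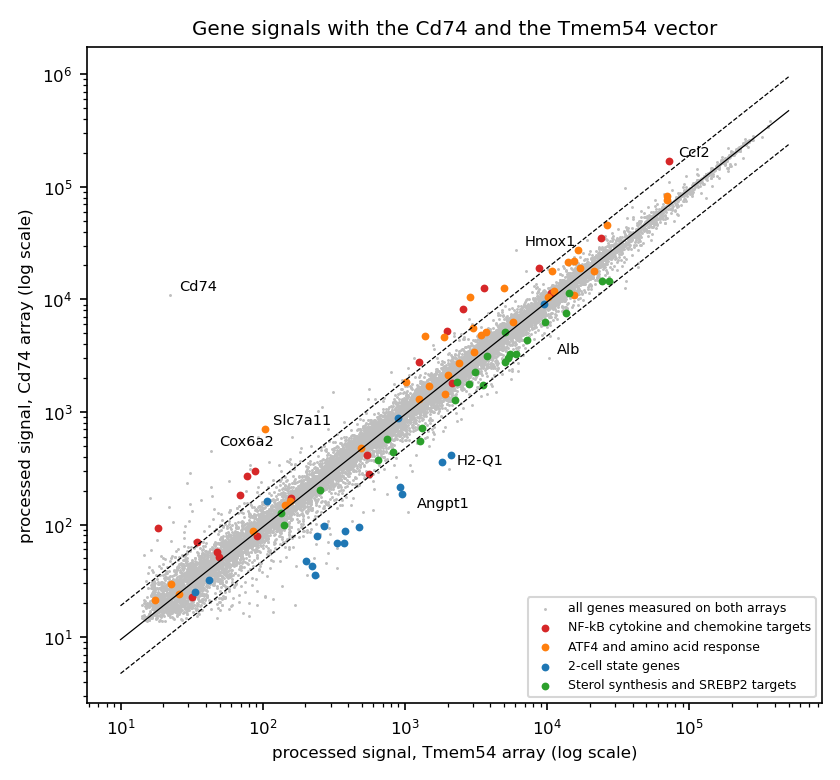
Processed signal of each of the 14580 genes on the Tmem54 array (x axis, log scale) and the Cd74 array (y axis, log scale), 1 point per gene and 1 array per vector. The solid line marks a log2 difference of 0 and the dashed lines mark 2-fold, and 4 gene lists are coloured. Cd74 stands alone at 10856 against 22.4, most NF-kB cytokine and chemokine genes lie above the line, and most 2-cell state and sterol genes lie below it.

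The bright gene highest with Cd74 after the insert itself was Cox6a2, the heart and muscle isoform of a cytochrome c oxidase subunit (chromosome 7, 135349160 to 135349219, build mm9). Its signals were 454 with Cd74, 43.0 with Tmem54 and 91.1 with the empty vector, a log2 difference of 3.47 with a model error of 0.23. It was followed by Slc7a11, the cystine importer that feeds glutathione synthesis, with signals of 705 with Cd74, 104 with Tmem54 and 249 with the empty vector and a difference of 2.84. The empty vector lay between both inserts for each of these genes. From here on, a value in parentheses after signals is the log2 difference, Cd74 minus Tmem54. Angptl6, a secreted angiopoietin-like protein, read 1504 with Cd74, 313 with Tmem54 and 398 with the empty vector (2.34). Acot2, a mitochondrial acyl-CoA thioesterase, read 1013 with Cd74, 243 with Tmem54 and 332 with the empty vector (2.13). Cfi, the protease that inactivates complement C3b, read 2269 with Cd74, 799 with Tmem54 and 1164 with the empty vector (1.58), and Crct1, a gene of the epidermal differentiation complex, read 602 with Cd74, 162 with Tmem54 and 265 with the empty vector (1.97). Chemokines, heme oxygenase, amino acid response genes and glutathione transferases were also at this end and are given with their lists.

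The bright gene lowest with Cd74 was Angpt1, the ligand that activates the endothelial receptor Tek (chromosome 15, 42256343 to 42256402, build mm9). Its signals were 129 with Cd74, 1060.0 with Tmem54 and 560.2 with the empty vector, a log2 difference of -2.97 with a model error of 0.21. H2-Q1, a nonclassical MHC class I gene, read 314 with Cd74, 2036 with Tmem54 and 1119 with the empty vector (-2.62). For both, the empty vector lay between the inserts. Nrep, a small protein linked to TGF-beta responses, read 188 with Cd74, 745 with Tmem54 and 569.7 with the empty vector (-1.91). Ifi27l2b, a relative of an interferon-inducible gene, read 264 with Cd74, 866 with Tmem54 and 682 with the empty vector (-1.64), and Mndal, a DNA-binding protein of the interferon-inducible p200 family, read 337 with Cd74, 1087 with Tmem54 and 1038 with the empty vector (-1.62). For AA684185, a gene model without an established role, the signals were 297 with Cd74, 1125 with Tmem54 and 1106 with the empty vector (-1.84). In these 4 the empty-vector signal was nearer to the Tmem54 signal.

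Ephb2, a receptor tyrosine kinase for ephrin-B ligands, differed in that its empty-vector signal lay beside that of Cd74, at 129 with Cd74, 507 with Tmem54 and 141 with the empty vector (-1.90). The same held for Mid1, a microtubule-associated ubiquitin ligase, at 107 with Cd74, 425 with Tmem54 and 138 with the empty vector (-1.91). The other 4 measured probes of Mid1 gave 0.12, 0.38, -0.18 and -0.41, so the size of its difference rests on 1 probe. Alb read 2993 with Cd74, 10261 with Tmem54 and 5727 with the empty vector, a difference of -1.70, and its other probe gave -1.77. Alb was thus 3.25-fold lower with Cd74 than with Tmem54, by the brighter probe.

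The genes were grouped into 33 lists by pathway and 7 by cell type. A list is described by its median, its members past 2-fold and its members above or below 0, beside 0.02, 2.13% and 54% or 46% over all measured genes. The lists were put together with earlier results of these arrays known, and members named for their role or for lying at the other end of a list were picked after their values were seen. The lists with the highest medians were the NF-kB cytokine targets (1.11), the immediate early genes (0.37) and the ATF4 genes (0.29), apart from 5 B cell and dendritic cell markers (0.35). The lowest were the 2-cell state genes (-2.02), the sterol genes (-0.68) and the mitotic genes (-0.52). The 25 ribosomal protein genes had a median of 0.02 and none past 2-fold (0 higher, 0 lower).

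**Figure D2:**
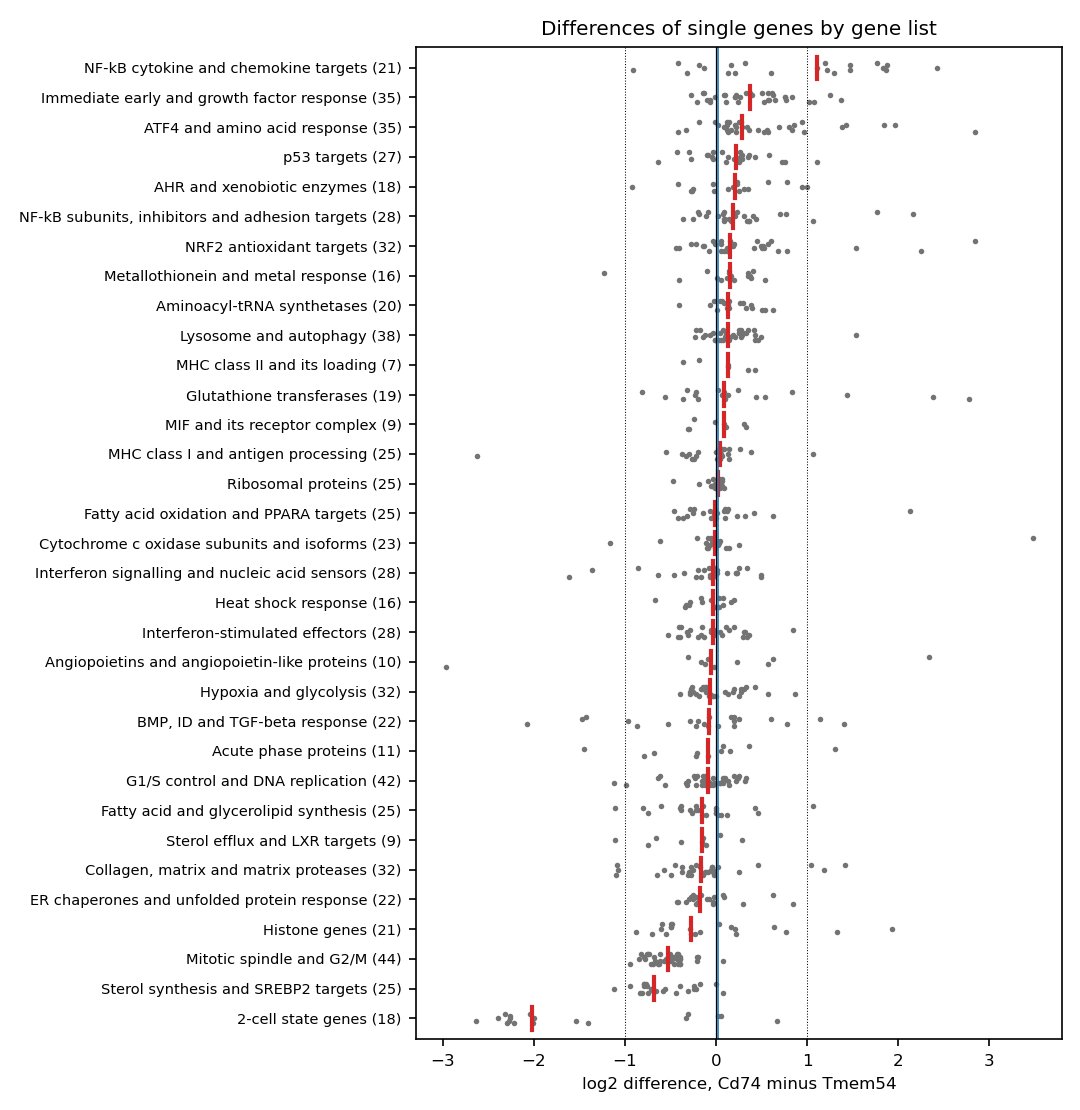
Log2 difference, Cd74 minus Tmem54 (x axis), of measured genes (grey points) by pathway list (y axis, number measured in parentheses), 1 array per vector. Cd74 itself (8.99) is not drawn, but it enters the numbers and medians of the MHC class II and MIF lists. Red bars mark list medians, dotted lines mark 2-fold and the blue line marks the median of all genes, 0.02. The NF-kB cytokine list lies farthest right at 1.11 and the 2-cell list farthest left at -2.02, while the sterol and mitotic lists are shifted left with few or no members past 2-fold.

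Genes for secreted cytokines and chemokines that NF-kB controls were on balance higher with Cd74 than with Tmem54. Of 27 such genes, 21 were measured, 11 of these were at least 2-fold higher and 0 were at least 2-fold lower, with a median of 1.11. The neutrophil-attracting chemokine genes Cxcl1, Cxcl2 and Cxcl5 and the monocyte-attracting Ccl2 and Ccl7 were among the 11. For 10 of the 21 genes, however, the empty-vector signal was above both inserts, and for the other 11 it lay between them. The higher value with Cd74 was therefore not, as a rule, a value above the empty vector: the median difference from the empty array was -0.08 with Cd74 and -0.79 with Tmem54.

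For the monocyte-attracting chemokines, Ccl2 read 168666 with Cd74, 72495 with Tmem54 and 146693 with the empty vector, a difference of 1.29, and Ccl7 read 12620.5 with Cd74, 3616 with Tmem54 and 11249.7 with the empty vector, a difference of 1.88. In both, the Tmem54 array was the low one and the other 2 lay close together. Cxcl1 read 8283 with Cd74, 2564 with Tmem54 and 9268 with the empty vector (1.77) and Cxcl2 read 297 with Cd74, 87.6 with Tmem54 and 252 with the empty vector (1.84). Cxcl5 read 19071 with Cd74, 8794 with Tmem54 and 30948 with the empty vector (1.19), with the empty vector highest. Ccl20, which attracts cells bearing Ccr6, read 268 with Cd74, 77.3 with Tmem54 and 297 with the empty vector (1.87). Cxcl16, a membrane-bound chemokine and scavenger receptor, read 2771 with Cd74, 1252 with Tmem54 and 1692 with the empty vector (1.22, and 0.997 by its next probe).

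Among growth factors of the myeloid lineage, Csf3 read 92.9 with Cd74, 18.2 with Tmem54 and 68.1 with the empty vector (2.42, model error 0.31) and Csf2 read 183 with Cd74, 69.7 with Tmem54 and 204 with the empty vector (1.47). Il6, the cytokine that drives the acute phase response in liver, read 70.4 with Cd74, 34.4 with Tmem54 and 58.9 with the empty vector (1.11). Lcn2, which binds bacterial siderophores, read 5196 with Cd74, 1977 with Tmem54 and 7284 with the empty vector, a difference of 1.47 and 1.60 by its next probe. Csf3, Csf2 and Il6 are dim, below the limit for bright genes, as are Cxcl2 and Ccl20. The largest difference in the other direction was that of Il34, a ligand of Csf1r, at 282 with Cd74, 560.3 with Tmem54 and 454 with the empty vector (-0.91). Il33 was well above background with Tmem54 only, at least 1.40-fold higher there. With normexp background correction the median of the list was 0.57 and 9 genes were past 2-fold, and over the 4 genes with another probe it was 0.86.

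NF-kB binds short sites just upstream of many of these genes, and GGNNNTTCC, a short form of its motif, was searched on both strands. RefSeq promoter windows of 250 bases before the start (build GRCm38.p6) were matched for 14 of the 21 measured cytokine genes, and 10 of them (71.4%) held the motif. It was held by 17.6% of the windows of all 27025 genes. A match is a description of the letters and not a site shown to be bound. Of the 6 cytokine genes past 2-fold that had a window, 4 held it, a share no higher than that of the list. The stretches upstream of 3 chemokine genes and of 2 inhibitors of the pathway are printed because they hold the motif and their genes were past 2-fold. This choice does not link the motif to the difference. In these 80 bases, written 5' to 3' on the strand of the gene, capitals mark the motif. Cxcl1 is at chr5:90891139-90891218, strand +, Cxcl2 at chr5:90903786-90903865, strand +, Ccl20 at chr1:83116650-83116729, strand +, Tnip3 at chr6:65590309-65590388, strand + and Tnfaip3 at chr10:19015411-19015490, strand -.
Cxcl1: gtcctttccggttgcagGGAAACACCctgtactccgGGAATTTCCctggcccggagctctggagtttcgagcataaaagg
Cxcl2: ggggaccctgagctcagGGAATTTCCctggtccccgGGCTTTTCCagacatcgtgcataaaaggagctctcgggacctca
Ccl20: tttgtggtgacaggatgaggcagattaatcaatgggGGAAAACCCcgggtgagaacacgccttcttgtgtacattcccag
Tnip3: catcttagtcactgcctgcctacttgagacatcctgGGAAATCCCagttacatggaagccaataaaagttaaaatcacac
Tnfaip3: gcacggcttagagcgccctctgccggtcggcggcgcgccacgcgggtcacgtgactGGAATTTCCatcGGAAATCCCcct

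Inhibitors, adaptors and subunits of the NF-kB pathway were shifted in the same direction by less. All 28 were measured, 22 were above 0, 3 were at least 2-fold higher and 0 lower, with a median of 0.18. The 3 are feedback inhibitors or adaptors that NF-kB itself induces. Tnip3, a ubiquitin-binding inhibitor, read 1108 with Cd74, 261 with Tmem54 and 732 with the empty vector (2.16, and 2.16 by its next probe). Traf1, an adaptor of TNF receptors, read 356 with Cd74, 110.4 with Tmem54 and 244 with the empty vector (1.77), and Tnfaip3, the deubiquitinase A20, read 4881 with Cd74, 2464 with Tmem54 and 3911 with the empty vector (1.06). In all 3 the empty vector lay between the inserts. Below 2-fold, the subunit Relb had a difference of 0.76 (2772 against 1721, Cd74 against Tmem54), the kinase regulator Ikbkg 0.70 (0.22 and 0.03 by its other probes) and the inhibitor Nfkbia 0.44. The motif was held by 14 of the 23 members with a promoter window (60.9%), and by 2 of the 3 past 2-fold.

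**Figure D3:**
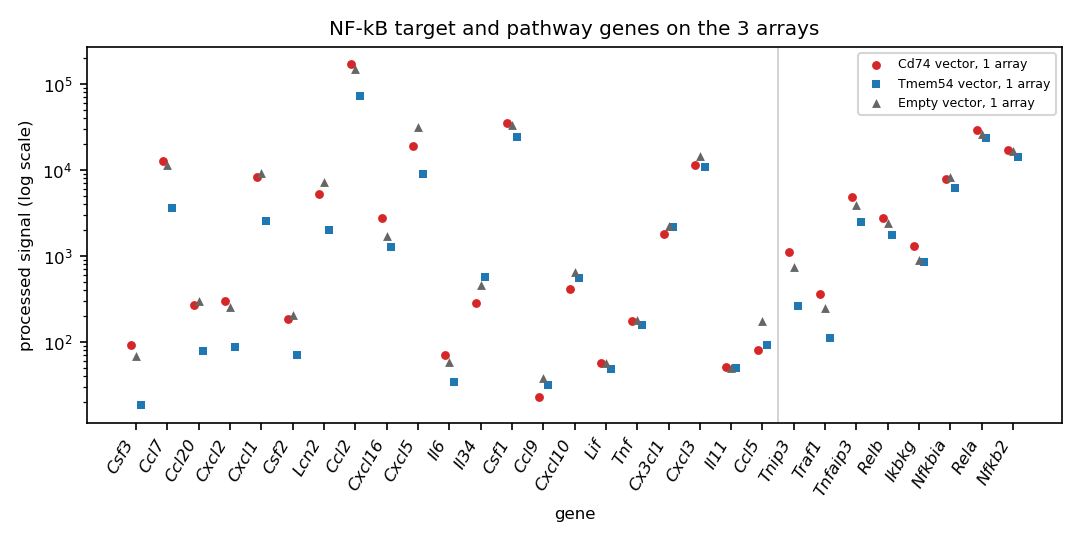
Processed signal (y axis, log scale) of 29 NF-kB targets and pathway genes on the Cd74 (circles), Tmem54 (squares) and empty-vector (triangles) arrays, 1 array each, ordered within each block by the size of the difference and divided by a line into secreted proteins and pathway members. For Csf3, Ccl7, Ccl20, Cxcl2 and Cxcl1 the Tmem54 square is the low one, while the Cd74 circle and the empty-vector triangle lie closer to each other.

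Acute phase proteins, which the liver secretes during inflammation, did not share one direction. Of 24 genes, 11 were measured, with a median of -0.09, which was 0.02 with normexp correction. Saa3, an inducible serum amyloid A, read 357 with Cd74, 152 with Tmem54 and 429 with the empty vector (1.31) and Crp, the C-reactive protein, read 17.3 with Cd74, 49.97 with Tmem54 and 46.8 with the empty vector (-1.45, model error 0.35). These were the only members past 2-fold, in opposite directions. Lbp, which binds bacterial lipopolysaccharide, had a difference of -0.68 and Steap4, an iron and copper reductase, -0.79. Haptoglobin, Hp, had 0.36.

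ATF4 is the transcription factor that the integrated stress response produces when amino acids are short or the ER is stressed, and it raises transporters and synthesis enzymes for amino acids. Its target genes were on balance higher with Cd74: of 35 measured, 31 lay above 0 and 5 were at least 2-fold higher, with 0 lower and a median of 0.29. For 26 of the 35 the empty vector lay between the inserts. The 5 were Slc7a11, given above, Trib3, Slc6a9, Ppp1r15a and Chac1. Trib3, a pseudokinase that restrains ATF4 and one of the genes named in the series description, read 10582 with Cd74, 2864 with Tmem54 and 3624 with the empty vector (1.96). Slc6a9, a glycine transporter, read 4711 with Cd74, 1379.6 with Tmem54 and 1748 with the empty vector (1.85). Ppp1r15a, the phosphatase subunit Gadd34 that ends the stress response, read 12704 with Cd74, 4994 with Tmem54 and 5767 with the empty vector (1.42), and Chac1, which degrades glutathione, read 4659 with Cd74, 1878 with Tmem54 and 2188 with the empty vector (1.39).

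Below 2-fold, Asns, the asparagine synthetase, read 27683 with Cd74, 16398 with Tmem54 and 17966 with the empty vector, a difference of 0.83 and 0.85 by its next probe. Atf5, a related transcription factor, had 0.85 and Gdf15, a stress-induced cytokine, 0.80. Nupr1, a stress-induced chromatin protein, had 0.97 by its brightest probe and 0.33 by the next, and Ddit3, the factor Chop, had 0.94 and 0.19. The sizes for Nupr1 and Ddit3 thus depend on the probe. Atf4 itself had a difference of 0.34. The negative end held Ddit4, an inhibitor of mTORC1, at -0.41 and Pck2, the mitochondrial PEP carboxykinase, at -0.33.

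The composite element at which C/EBP and ATF factors bind was searched as TGATGNAA on both strands, and 7 of 31 members with a promoter window held it (22.6%), beside 3.91% of all windows. It is shown for 4 members because they lie at the upper end of the list, from 2.84 for Slc7a11 to 0.83 for Asns. Of the 5 members past 2-fold, however, 2 held it in this window, and Trib3, Slc6a9 and Ppp1r15a did not. Pck2, at the negative end of the list (-0.33), held it as well. Capitals mark the motif in stretches of 80 bases of build GRCm38.p6 (RefSeq). Slc7a11 is at chr3:50443617-50443696, strand -, Chac1 at chr2:119351013-119351092, strand +, Nupr1 at chr7:126625537-126625616, strand - and Asns at chr6:7693210-7693289, strand -.
Slc7a11: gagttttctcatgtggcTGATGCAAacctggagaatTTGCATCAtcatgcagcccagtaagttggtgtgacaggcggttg
Chac1: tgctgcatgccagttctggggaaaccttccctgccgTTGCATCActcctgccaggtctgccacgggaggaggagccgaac
Nupr1: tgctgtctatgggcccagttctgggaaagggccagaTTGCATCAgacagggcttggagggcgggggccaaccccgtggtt
Asns: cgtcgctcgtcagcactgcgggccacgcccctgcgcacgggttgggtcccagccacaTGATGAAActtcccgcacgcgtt

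The cytosolic aminoacyl-tRNA synthetases, which ATF4 also controls in part, lay slightly above 0 in 17 of 20 genes, with a median of 0.14 and none past 2-fold (0 of 20). Aars read 13713 with Cd74, 9401 with Tmem54 and 9800.2 with the empty vector (0.62), Sars 39255 with Cd74, 28542 with Tmem54 and 29956 with the empty vector (0.54) and Lars 9399 with Cd74, 6981 with Tmem54 and 7359.7 with the empty vector (0.51). Vars, the valine enzyme, was the lowest at -0.41. Of the 13 with a promoter window, 3 held the composite motif (23.1%). The ER chaperones and genes of the unfolded protein response lay the other way, with 17 of 22 below 0, a median of -0.18 and 0 past 2-fold. Hsp90b1, the ER form of Hsp90, had -0.42, the disulfide isomerase Pdia4 -0.42 and the calcium-binding chaperone Calr -0.33. Dnajb9, a co-chaperone, had 0.84 (0.44 by its next probe) and Ern1, the sensor Ire1, 0.63. The ER list thus lay below 0 while the ATF4 list lay above it.

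NRF2, encoded by Nfe2l2, drives antioxidant and detoxifying enzymes. Of 32 target genes, all measured, 23 lay above 0, 3 were at least 2-fold higher with Cd74 and 0 lower, with a median of 0.16, which was 0.38 over the 12 genes with another probe. Hmox1, which degrades heme, read 27446 with Cd74, 6076 with Tmem54 and 7550.1 with the empty vector, a difference of 2.25 with a model error of 0.20. Sqstm1, the autophagy receptor p62, read 97566 with Cd74, 35552 with Tmem54 and 43789.6 with the empty vector (1.53, and 1.60 by its next probe). The third was Slc7a11, which is also on the ATF4 list. In all 3 the empty vector lay between the inserts, nearer to Tmem54.

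Below 2-fold, Nqo1, a quinone reductase, read 685 with Cd74, 419 with Tmem54 and 482 with the empty vector (0.78). The glutathione synthesis enzymes Gclm and Gss had 0.68 and 0.60. The conjugate exporter Abcc4 had 0.57, and its relative Abcc2 had -0.44. Nfe2l2 had 0.16 (0.82 by its next probe) and its inhibitor Keap1 -0.14. The core of the antioxidant response element, searched as TGACNNNGC on both strands, was held by 8 of 27 windows (29.6%), beside 11.5% of all. Of the 2 members past 2-fold that had a window, 0 held it. Its holders lay on both sides of 0, with Gclm and Abcc4 above and Abcc2 below.

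Glutathione transferases join glutathione to electrophiles. Of 22 on the array 19 were measured, 3 of them at least 2-fold higher and 0 lower, with a median of 0.09. All 3 belong to the alpha class. Gsta2 read 214 with Cd74, 43.2 with Tmem54 and 94.0 with the empty vector (2.38) and Gm10639, an alpha-class gene, read 597 with Cd74, 92.0 with Tmem54 and 254 with the empty vector (2.78). Gsta3 read 476 with Cd74, 185 with Tmem54 and 294 with the empty vector (1.44, and 1.23 by its next probe). The probes of Gsta2 and Gm10639 share 53 of 60 bases, so both may read the same transcripts. Gsta4 had 0.84, the microsomal Mgst1 and Mgst3 0.54 and -0.81, and the mu-class Gstm2 -0.56.

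Hepa1c1c7 cells are a standard model of the aryl hydrocarbon receptor, whose targets are xenobiotic enzymes. Of 28 such genes on the array, 18 were measured, with a median of 0.21, 11 above 0 and 0 past 2-fold in either direction. Cyp3a13 had 0.996, just under 2-fold, at 64.1 with Cd74, 33.9 with Tmem54 and 66.8 with the empty vector. Ugt1a6b, a glucuronosyltransferase, had 0.94 and Cyp1b1, a receptor target, 0.57. Fmo1, a flavin monooxygenase, had -0.92 (-1.32 and -0.12 by its other probes). Cyp1a1, the classic target in this line, read 2005 with Cd74, 1800.0 with Tmem54 and 1529 with the empty vector (0.23).

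**Figure D4:**
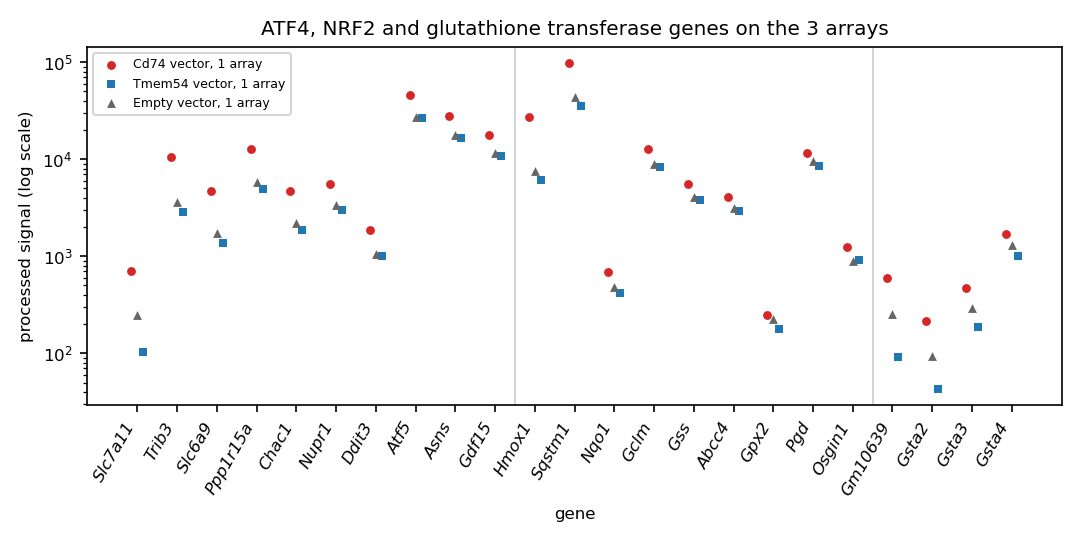
Processed signal (y axis, log scale) of 23 ATF4, NRF2 and alpha-class glutathione transferase genes, in 3 blocks divided by lines. Circles are the Cd74 array, squares the Tmem54 array and triangles the empty-vector array, 1 array each. The genes were chosen by how far the inserts differed, so the figure does not stand for the whole lists. For most of the genes drawn the Cd74 circle lies above the Tmem54 square. For most ATF4 genes the triangle and the square lie close together.

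Immediate early genes, which growth factors and stress switch on within minutes, were on balance higher with Cd74. Of 38 genes 35 were measured, 27 lay above 0, 4 were at least 2-fold higher and 0 lower, with a median of 0.37. Atf3, a repressor of the ATF family, read 704 with Cd74, 286 with Tmem54 and 383 with the empty vector (1.37). The orphan nuclear receptor Nr4a2 read 494 with Cd74, 218 with Tmem54 and 256 with the empty vector (1.25, and 1.23 by its next probe). Areg, a ligand of the EGF receptor, read 2127 with Cd74, 1066 with Tmem54 and 1238 with the empty vector (1.07) and Dusp2, a MAP kinase phosphatase, read 137 with Cd74, 71.4 with Tmem54 and 89.6 with the empty vector (1.02). Fosl1, an AP-1 subunit, had 0.83 and Ier3 0.76. Fos had -0.21, so the AP-1 genes were not all on one side. The cAMP response motif TGACGTCA was held by 3 of 25 windows (12%) beside 1.77% of all, and the serum response form CATATTAG by 0 of 25 beside 0.389% of all, a result about these windows and these letters only.

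Targets of p53 had a median of 0.22, with 18 of 27 above 0, and 1 was past 2-fold. That gene was Plk2, a polo-like kinase, at 2654 with Cd74, 1302 with Tmem54 and 1676 with the empty vector (1.10). Gadd45a, a growth arrest gene, had 0.76 and Trp53inp1, an autophagy regulator, 0.72, while Sesn1 had -0.64 and Trp53 itself -0.43. Lysosome and autophagy genes had a median of 0.13, with 29 of 38 above 0, and Sqstm1 was the only one past 2-fold. Atg7, an enzyme of autophagosome formation, had 0.49, and the cathepsins Ctsl and Ctsb 0.46 and 0.43.

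Genes of mitosis and the G2/M phase were lower with Cd74 almost throughout, each by less than 2-fold. All 44 were measured, 43 of them lay below 0 and 0 were past 2-fold, with a median of -0.52. The median was -0.51 over the 25 genes with another probe and between -0.54 and -0.51 under every other processing tried. For 40 of the 44 the empty vector lay between the inserts. The exception above 0 was Mybl2 (0.07), a transcription factor of the cell cycle.

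Cenpa, the centromeric histone, read 1568 with Cd74, 3171 with Tmem54 and 2723 with the empty vector (-0.94). Cdc25c, the phosphatase that releases Cdk1, read 1037 with Cd74, 1969 with Tmem54 and 1761 with the empty vector (-0.85), and Nuf2, a kinetochore protein, read 3015 with Cd74, 5608 with Tmem54 and 5269 with the empty vector (-0.82). In each of these the Cd74 array was lowest. Ube2c, the E2 enzyme of the anaphase-promoting complex, read 9808 with Cd74, 17811 with Tmem54 and 16533 with the empty vector (-0.78). Hmmr, a spindle and hyaluronan-binding protein, had -0.77 and Ckap2l, a spindle protein, -0.76. The cyclin Ccnb2, the activator Cdc20 and the regulator Foxm1 had -0.73, -0.72 and -0.67.

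Cell cycle genes are known for a CCAAT box paired with the cell cycle homology region TTTGAA near the start. On either strand, 27 of 37 windows of the mitotic list held CCAAT (73.0%), beside 37.5% of all windows, and 11 of 37 held TTTGAA (29.7%), beside 18.3%. For Cdc20 and Ube2c the last 80 bases before the start are printed because TTTGAA, in capitals, lies close to the start there (RefSeq, build GRCm38.p6). Cdc20 is at chr4:118437344-118437423, strand - and Ube2c at chr2:164769849-164769928, strand +.
Cdc20: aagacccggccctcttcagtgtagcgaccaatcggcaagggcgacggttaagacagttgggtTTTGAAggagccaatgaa
Ube2c: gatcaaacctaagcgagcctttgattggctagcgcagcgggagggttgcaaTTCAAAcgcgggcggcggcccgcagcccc

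Genes of G1/S control and DNA replication were shifted less, with a median of -0.09 and 27 of 42 below 0. Cdkn2c, the inhibitor p18 of Cdk4 and Cdk6, was the only member past 2-fold, at 1774 with Cd74, 4067 with Tmem54 and 3459 with the empty vector (-1.12, and -1.20 by its next probe). Ccnd1, the cyclin of the G1 phase, read 20968 with Cd74, 43824 with Tmem54 and 38794 with the empty vector (-0.99). E2f8, a repressor of replication genes, had -0.64, the thymidine kinase Tk1 -0.61 and the inhibitor Cdkn1b -0.56 (-1.39 by its next probe). Replication genes such as Mcm10 (0.32) and Prim1 (0.33) lay above 0. Histone genes, most of which are expressed in S phase, had a median of -0.27 with 13 of 21 below 0, and -0.49 among the 13 bright members. H4c1 read 58.8 with Cd74, 16.3 with Tmem54 and 27.1 with the empty vector (1.93) and H2ac18 read 6715 with Cd74, 2825 with Tmem54 and 3103 with the empty vector (1.33), both higher with Cd74. H1f1 had -0.88 and H1f5 -0.70. Many histone transcripts lack a poly(A) tail and near-identical copies share sequence, so these values are uncertain.

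Genes of cholesterol synthesis and uptake, which the factor SREBP2 raises when sterols are low, were lower with Cd74. Of 27 on the array 25 were measured, 24 lay below 0 and 1 was at least 2-fold lower, with 0 higher and a median of -0.68. Over the 16 genes with another probe the median was -0.61. The empty vector lay between the inserts for 19 of the 25 and above both for 5. The shift was spread along the pathway, with members from acetoacetyl-CoA to cholesterol on the same side.

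In pathway order, Mvk and Pmvk, the kinases of mevalonate, had -0.70 and -0.75. Mvd, which makes isopentenyl diphosphate, read 439.8 with Cd74, 824 with Tmem54 and 719 with the empty vector (-0.83), and its isomerase Idi1 read 3301 with Cd74, 6034 with Tmem54 and 5479 with the empty vector (-0.79). Fdps, the farnesyl diphosphate synthase, read 14689 with Cd74, 27231 with Tmem54 and 23424 with the empty vector (-0.81), and Fdft1, the squalene synthase, read 2790.4 with Cd74, 5100.0 with Tmem54 and 4735 with the empty vector (-0.79). Lss, which closes the sterol rings, read 1748 with Cd74, 3543 with Tmem54 and 3055 with the empty vector (-0.94, and -0.56 and -0.70 by its other probes). Nsdhl, which removes a methyl group from the ring, read 556 with Cd74, 1278 with Tmem54 and 1094 with the empty vector (-1.12), but its next probe gave -0.03, so the only member past 2-fold rests on 1 probe.

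Early in the pathway, the synthase Hmgcs1 had a difference of -0.55 (6259.5 against 9689, Cd74 against Tmem54), and the sterol carrier Stard4 had -0.79. Srebf2 itself had -0.24 (-0.74 by its next probe), its escort Scap 0.07 and its anchor Insig1 -0.44.

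SREBP2 acts with the CCAAT-binding factor NF-Y at many of these promoters. On either strand 16 of 18 windows of the sterol list held CCAAT (88.9%), beside 37.5% of all windows, and the sterol motif TCACNCCAC was held by 1 of 18 (5.56%), beside 1.22%. Printed here are Hmgcs1, the 1 window with the sterol motif, and Lss, Idi1 and Mvd, whose genes were among the lowest of the list and which hold CCAAT on either strand. Capitals mark these motifs, in stretches of 80 bases (RefSeq, build GRCm38.p6). Hmgcs1 is at chr13:119690178-119690257, strand +, Lss at chr10:76531505-76531584, strand +, Idi1 at chr13:8885526-8885605, strand + and Mvd at chr8:122443423-122443502, strand -.
Hmgcs1: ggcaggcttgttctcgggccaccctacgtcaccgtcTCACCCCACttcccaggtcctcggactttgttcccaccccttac
Lss: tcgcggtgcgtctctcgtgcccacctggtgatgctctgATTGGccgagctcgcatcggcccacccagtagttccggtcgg
Idi1: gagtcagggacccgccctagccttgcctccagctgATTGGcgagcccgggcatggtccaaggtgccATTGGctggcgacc
Mvd: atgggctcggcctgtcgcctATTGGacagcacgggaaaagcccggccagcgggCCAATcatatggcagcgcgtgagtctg

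**Figure D5:**
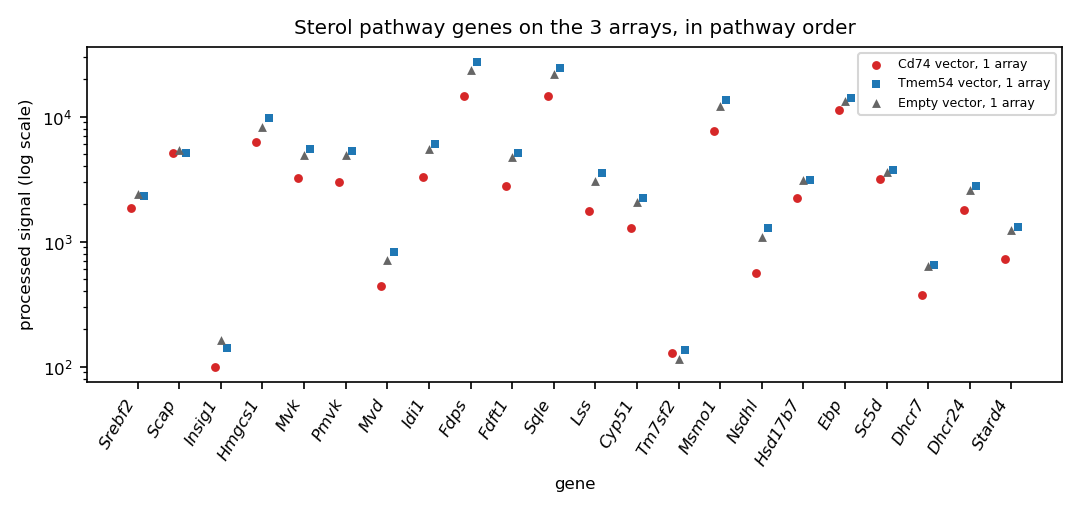
Processed signal (y axis, log scale) of 22 genes of sterol synthesis and transport on the Cd74 (circles), Tmem54 (squares) and empty-vector (triangles) arrays, 1 array each, with regulators first, then enzymes in pathway order, then Stard4. The Cd74 circle is the lowest of the 3 for most genes, as for Lss at 1748 against 3543, and the triangle lies nearer to the Tmem54 square.

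Fatty acid and glycerolipid synthesis had a median of -0.15 with 18 of 25 below 0. Scd2, a desaturase, read 19319 with Cd74, 43741 with Tmem54 and 37654 with the empty vector (-1.10), while Dgat2, which completes triglycerides, read 1906 with Cd74, 961 with Tmem54 and 1231 with the empty vector (1.06), so the members past 2-fold lay on opposite sides. The acyl-CoA synthetases Acsl1, Acsl5 and Acsl3 had -0.80, -0.74 (-0.14 by its next probe) and -0.61, and the droplet protein Plin2 had 0.46. Among 9 measured genes of sterol efflux and the receptor LXR (median -0.16), the exporter Abca1 had -0.75 and Lpcat3, a phospholipid acyltransferase, -0.66. Fatty acid oxidation genes had a median of -0.01 over 25 genes, and Acot2 was the only one past 2-fold. Its neighbour in function Acot1 had 0.42, Angptl4 0.63 and the dehydrogenase Hadh -0.46.

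Cox6a2 stood apart from the rest of cytochrome c oxidase. Among 23 measured genes of this enzyme the median was -0.02, and the only other member past 2-fold was Cox7b2, a testis isoform, at 149 with Cd74, 352 with Tmem54 and 316 with the empty vector (-1.16). The muscle isoform Cox7a1 had -0.62, and Cox6a1, the general isoform of the same subunit, had -0.04. Hypoxia and glycolysis genes had a median of -0.06 over 32 genes with 0 past 2-fold, and Ndrg1, a hypoxia-induced gene, had the largest difference, 0.86. Heat shock genes had a median of -0.04 over 16, 0.01 with quantile normalization, with Cryab, a small heat shock protein, at -0.67. Among 16 genes of metal handling (median 0.15), the magnesium transporter Slc41a1 read 339 with Cd74, 836 with Tmem54 and 311 with the empty vector (-1.23), but its next probe gave -0.15. Mt2, a metallothionein, had 0.40 and the zinc importer Slc39a14 0.53.

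BMP signalling raises the ID proteins, which block differentiation factors of the bHLH class. The list of 22 measured genes of the BMP and TGF-beta response had a median of -0.08 and was split: 3 members were at least 2-fold lower with Cd74 and 2 at least 2-fold higher. The lower members were Atoh8, Id3 and Id2. Atoh8, a bHLH factor and a BMP target in liver, read 134 with Cd74, 593 with Tmem54 and 415 with the empty vector (-2.07). Id3 read 1968 with Cd74, 5593 with Tmem54 and 4813 with the empty vector (-1.43) and Id2 read 1505 with Cd74, 4405 with Tmem54 and 4185 with the empty vector (-1.47, and -0.59 by its next probe). Id1 read 14224 with Cd74, 29245 with Tmem54 and 28531 with the empty vector (-0.96), just under 2-fold, and the inhibitory Smad6 had -0.87. The ligands Bmp4 and Bmp7 had 0.61 and 0.20, and the signal carrier Smad1 0.25. For Atoh8, Id1, Id2 and Id3 the empty vector lay between the inserts.

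Among the higher members was the ligand Tgfb2, at 31.6 with Cd74, 15.1 with Tmem54 and 26.1 with the empty vector (1.14, a dim probe). Matrix genes were split as well. Of 32 measured, 26 lay below 0, with a median of -0.16, and 3 were past 2-fold in each direction. The fibrillar collagen Col1a1 read 4747 with Cd74, 10556 with Tmem54 and 8430.5 with the empty vector (-1.08, and -1.08 by its next probe), Col3a1 read 43.2 with Cd74, 96.5 with Tmem54 and 67.1 with the empty vector (-1.08), and Timp3, an inhibitor of matrix proteases, read 2747 with Cd74, 6207 with Tmem54 and 5014 with the empty vector (-1.10, and -0.84 by its next probe). In contrast, the proteases Mmp3 and Mmp13 read 3970.3 with Cd74, 1573 with Tmem54 and 1921 with the empty vector (1.41) and 2654 with Cd74, 1229 with Tmem54 and 1431 with the empty vector (1.19). These collagens were thus lower and these proteases higher with Cd74.

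Angpt1 and Angptl6 lay on opposite sides. Of 5 measured angiopoietin and angiopoietin-like genes they were the only members past 2-fold, beside Angptl4, a lipase inhibitor, at 0.63, Angptl2 at 0.23 and Angpt2 at -0.12. With 5 genes of the VEGF family, which also act on vessels, the list of 10 had a median of -0.05, with Vegfa at 0.57 and Vegfd at -0.30. The receptors Tek and Tie1 were not well above background on both arrays, so no difference was measured for them.

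Genes of the 2-cell state, a program that a few cells in mouse embryonic stem cell cultures pass through, had the lowest median, -2.02. Of 26 on the array 18 were measured, and 13 of these were at least 2-fold lower with Cd74 and 0 higher. The list holds genes that an earlier look at these arrays had singled out, so its direction is not independent evidence. Zscan4c, a telomere-associated zinc finger gene, read 35.7 with Cd74, 232 with Tmem54 and 204 with the empty vector (-2.63), and Zscan4f read 67.9 with Cd74, 375 with Tmem54 and 286 with the empty vector (-2.39). Tcstv3 read 362 with Cd74, 1830.5 with Tmem54 and 1518 with the empty vector (-2.26), Gm4340 read 416 with Cd74, 2120.2 with Tmem54 and 1705 with the empty vector (-2.27) and BB287469 read 94.8 with Cd74, 477 with Tmem54 and 358 with the empty vector (-2.25). For these the empty-vector signal lay near that of Tmem54, with Cd74 low.

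AF067061 read 186 with Cd74, 960.1 with Tmem54 and 730.4 with the empty vector (-2.30, and -2.003 by its next probe) and Gm20767 read 218 with Cd74, 919.8 with Tmem54 and 770.3 with the empty vector (-2.004). Tcstv1 was well above background without Cd74 only, at least 6.30-fold higher with Tmem54. Some of these genes are near-identical copies: the probes of Zscan4a and Zscan4c share 56 of 60 bases and those of Gm2022 and Gm8300 51 of 60, so these pairs may not be separate measurements. In 4 other pairs compared the probes shared 20 to 39 of 60 bases. Probes at different places of near-identical copies can share few bases, so this does not show that those pairs are separate measurements. Other members did not differ as much, with Arg2 at 0.67, Zfp352 at 0.05 and Eif1a at 0.03. With normexp correction the median was -1.42 and 12 genes were past 2-fold.

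As Cd74 is the partner of MHC class II, its companions were listed. Of 13 class II genes, 7 were measured, and Cd74 itself was the only one past 2-fold. The transactivator Ciita had 0.43 (26.4 against 20.6, Cd74 against Tmem54) by its brightest probe and -0.69 by the other, both dim. The loading factors H2-DMa and H2-DMb1 had 0.13 and 0.13, the thiol reductase Ifi30 0.35 and the chain H2-Eb1 -0.36. H2-Aa and H2-Ab1, the chains that Cd74 escorts, were not well above background on both arrays. Among 9 measured genes of MIF and its receptor, Cd44 had 0.33. Mif had 0.11 by its brightest probe and -0.01 by the other, and Src 0.31 and -0.22, while the kinases Mapk3 and Akt1 had -0.31 and -0.29. The coreceptors Cxcr2, Cxcr4 and Ackr3 were not well above background on both arrays.

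MHC class I and antigen processing had a median of 0.04 over 25 genes. H2-Q1 was the only member at least 2-fold lower and Nlrc5, the class I transactivator, the only one at least 2-fold higher, at 155 with Cd74, 78.2 with Tmem54 and 114 with the empty vector (1.06, and 0.42 by its next probe). The classical genes H2-K1 and H2-D1 had 0.06 and -0.0029. H2-T22 had -0.55 and the peptide transporter Tap2 0.39. H2-Q1 thus differed from its class I relatives on these arrays.

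Interferon-stimulated effectors, the antiviral genes induced by interferon, hardly differed between the inserts on these arrays. Of 39 genes 28 were measured, 0 were past 2-fold and the median was -0.04, which was 0.19 over the 7 genes with another probe. For 23 of the 28 the empty vector lay above both inserts. Isg15, a ubiquitin-like modifier, read 405 with Cd74, 569.9 with Tmem54 and 1041 with the empty vector (-0.42), and Apol9b read 292 with Cd74, 379 with Tmem54 and 811 with the empty vector, a difference of -0.30. Mx1, an antiviral GTPase, had -0.52 and Igtp, an immunity GTPase, 0.85. The response core GAAANNGAA was held by 11 of 21 windows (52.4%), beside 8.18% of all.

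The interferon signalling list had a median of -0.03 over 28 genes, with 2 at least 2-fold lower and 0 higher. Both belong to the p200 family of DNA-binding proteins. Ifi204 read 683 with Cd74, 1851 with Tmem54 and 1685 with the empty vector (-1.36, and -1.27 by its next probe), beside Mndal given above, and another member, Ifi205, had -0.85. Irf8, a factor of myeloid cells, had -0.64. Irf7, the master regulator of interferon genes, read 221 with Cd74, 271 with Tmem54 and 623 with the empty vector (-0.22), with the empty vector highest.

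For 495 genes the probe was well above background with Cd74 and not with Tmem54, and for 381 the reverse, so that these have a bound and no measured difference. The bound reached 2-fold for 112 genes higher with Cd74 and 91 higher with Tmem54. Apart from the Tmem54 insert, the largest bounds with Cd74 were those of Pdcd1, the T cell checkpoint receptor PD-1, at least 21.0-fold (278 with Cd74, 3.22 with Tmem54 and 10.3 with the empty vector), and Kynu, the kynureninase of tryptophan breakdown, at least 16.8-fold (222 with Cd74, 3.02 with Tmem54 and 2.78 with the empty vector). The adult globin Hbb-b1 followed with at least 14.8-fold (196 with Cd74, 3.25 with Tmem54 and 2.96 with the empty vector), besides the gene models 4930539C22Rik and Gm10825 at 16.3 and 16.1. None of these 5 was well above background with the empty vector.

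Higher with Tmem54 were Lrrn1, a leucine-rich repeat membrane protein, at least 25.5-fold (3.23 with Cd74, 362 with Tmem54 and 2.79 with the empty vector), and Prkg1, the cGMP-dependent kinase, at least 18.4-fold (3.12 with Cd74, 261 with Tmem54 and 2.93 with the empty vector). Ptafr, the receptor of platelet-activating factor, followed with at least 13.7-fold (3.13 with Cd74, 195 with Tmem54 and 4.82 with the empty vector), beside the gene model Gm31925 at 20.6. None of these 4 was well above background with the empty vector. With normexp correction 29 and 23 genes reached 2-fold in place of 112 and 91.

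Markers of other cell types were set beside these differences. Fibroblast markers had a median of -0.26 over 10 measured of 15, with Col1a1 and Col3a1 past 2-fold and Pdgfrb at -0.75; their summed signal was 154937 with Cd74 and 162997 with Tmem54. Macrophage markers had a median of -0.02 over 9 of 14, with 6 below 0, and summed to 13980.9 and 14844.6. They ran from Csf1r at -0.27 to Cd68 at 0.63. Cholangiocyte markers had a median of -0.18 over 7 of 13, with 5 below 0. They ran from -0.37 to 0.68, the value of Sox4, and Epcam was not well above background. T cell markers had a median of 0.01 over 5, with 2 below 0, Cd3d at -1.10 and Pdcd1 given above. Endothelial markers had a median of 0.15 over 5, and Vwf read 126 with Cd74, 48.4 with Tmem54 and 67.5 with the empty vector (1.45), but its next probe gave -0.11. Hepatocyte markers had a median of -0.13 over 14 of 28, with Alb the only one past 2-fold. The part of these markers in the differences above was not tested.

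Other probes give a view of how firm single values are, while the place of the empty vector is only described. Of the 311 genes past 2-fold, 54 had another measured probe, which had the same sign in 47 and was also past 2-fold in 22. Across 6500 genes with 2 or more probes, Pearson's r between the brightest and the next probe was 0.56 (Spearman's rho 0.60), a description across genes that share the same arrays. Of the 141 genes higher with Cd74 the empty vector lay between the inserts for 121, and its signal was nearer to Tmem54 for 94 and nearer to Cd74 for 43. Of the 170 genes lower with Cd74 it lay between for 152, nearer to Tmem54 for 147 and nearer to Cd74 for 23. For 4 genes higher with Cd74 it was not well above background. The 311 genes were chosen for a wide gap between the inserts. An empty-vector signal inside that gap is therefore likely even where the gap is noise. The same shares over all measured genes are not given here. The counts for the empty vector thus do not show how firm a difference is.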

How the data were processed

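RNA of Hepa1c1c7 cells was measured on 1-colour (Cy3) Agilent arrays, 1 per vector, and groups follow the transfection label. The deposited intensity is the processed signal of Agilent Feature Extraction 12.0.3.1, linear and detrended, per the file headers and the submitters' processing notes. The deposited value table of the series is a linear ratio, the processed signal over 1 constant per array, 559.8 for Cd74 and 580.7 for Tmem54, with medians of 0.0393 and 0.0390, and is neither centred nor on a log scale. Direction needs no dye assignment.

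Control spots (62976 spots, 59305 not controls) and outlier spots, 119 with Cd74 and 135 with Tmem54, were left out. The value was log2 of the processed signal minus its array's 75th percentile, 642.8 and 677.7. Spots of a probe were averaged. The difference was Cd74 minus Tmem54 for probes well above background on both arrays, and a gene took its probe with the highest mean over both. Where 1 array only was well above background, a bound was set against the other array's lowest such signal, or the probe's own signal if higher. Bright means a level at or above the median of measured probes. Symbols came from RefSeq (GRCm38.p6) for 44049 of 56604 probes, 34587 of them by accession. Probe coordinates are those of the files, build mm9.

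With 1 array per vector no test was run. Genes and lists were chosen with earlier results of these data known. Named are the inserts, the genes in the series description, the 15 highest and 15 lowest bright genes, the 5 largest bounds per direction and up to 6 members per list. Members beyond these were named after their values were seen. Some genes under this rule are not reported here. Alternatives were normexp with an offset of 50 (limma 3.58.1), quantile and median scaling, the value table, other probe rules and other folds. The counting was tested on simulated data. Python 3.11.15, numpy 2.4.6 and pandas 2.3.3 were used.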

Additional observations from a re-analysis of the deposited data

Results flagged for a closer look

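Probes that matched no single gene in the reference table used, some of which the array design does describe, entered no comparison of genes. Of 12555 such probes, 5051 were measured with both inserts, 41 of them at least 2-fold higher with Cd74 (0.812%) and 46 lower (0.911%), beside 0.818% and 0.95% of all measured probes. Among these, 4 had a signal at least 2-fold above the empty vector on the brighter array, at the level of bright genes, and are given for that reason. The probe on chromosome X, 11693554 to 11693613 (build mm9), read 2485 with Cd74, 466 with Tmem54 and 797 with the empty vector, a log2 difference of 2.49. The probe on chromosome 12, 33615353 to 33615412, read 448, 165 and 230.3 on the same arrays (1.52). The probe on chromosome 18, 70400083 to 70400142, read 525, 189.5 and 256 (1.55), and the probe on chromosome 10, 80854234 to 80854293, read 585, 289 and 299 (1.09). All 4 were higher with Cd74, but the filter leaves out probes whose empty-vector signal lay near that of the brighter array. A probe left out in this way read 244 with Cd74, 1192 with Tmem54 and 1032 with the empty vector (-2.21). The shared direction of the 4 is therefore not a result about such probes.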

How the results depend on the processing

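No paired analysis was possible because each vector has 1 array. The counts of genes past 2-fold, 141 higher and 170 lower with Cd74, moved by over 1.5 times under 7 settings. They were 63 and 81 with normexp correction and 47 and 61 among bright genes, which pass by their brighter array. By the next-brightest probe they were 44 and 38, and 396 and 365 where 1 array well above background was enough. Counted as probes they were 241 and 280, at 1.5-fold 557 and 588, and at 3-fold 38 and 48. Centring on the median, quantile normalization, the deposited value table and the mean of all probes kept both counts within 1.5 times. For the value table this was fixed in advance, as it differs from the processed signal by 1 constant per array. Centring on the median shifts all genes by the same amount, and the mean of all probes changes only genes with more than 1 measured probe. Normexp correction left 29 and 23 of the bounds at 2-fold. List medians moved in 10 of 310 cases, to 0.57 (normexp) and 0.86 (next probe) for NF-kB cytokines, to -1.42 (normexp) and -2.25 (bright genes) for 2-cell genes, and, by the next probe, to 0.19 for interferon effectors, 0.38 for NRF2 targets and -0.55 for hepatocyte markers. Bright members alone gave 0.35 for MHC class II and -0.49 for histones, and the mean of all probes 0.10 for B cell and dendritic cell markers. Of 2174 values of named genes under another setting, 105 moved by more than the model error. In addition, 2 called genes changed sign, Mid1 to 0.12 and Vwf to -0.11, both by the next probe. Some settings, among them the value table and bright genes only, leave the value of a gene unchanged by construction. The number of values that did not move is therefore in part fixed in advance. The causes of the changes were not tested. Genes below the bright limit have less signal over background and a wider spread of differences.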

Other observations

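Several gene families outside the lists held members that differed together between the inserts. They were chosen after their values were seen, and single values given for a gene are log2 differences, Cd74 minus Tmem54. For reference, 0.967% of all measured genes were past 2-fold upwards with Cd74 and 1.17% downwards. Of 12 Ly6 genes on the array, which encode small membrane-anchored proteins, 8 were measured, all 8 lay below 0 and 5 were at least 2-fold lower with Cd74, with a median of -1.16. Ly6a, the stem cell antigen Sca-1, read 1388 with Cd74, 3456 with Tmem54 and 2823 with the empty vector (-1.24). Ly6c1 read 2329 with Cd74, 5695 with Tmem54 and 4589 with the empty vector (-1.21), and its probe shares 57 of 60 bases with that of Ly6c2 (-1.12), so both may read the same transcripts. Of 12 Klra genes, the lectin receptors of natural killer cells, 8 were measured and 5 were at least 2-fold lower, with a median of -1.11. Among the 5, Klra1 had -1.13 by its brightest probe but -0.19 by the next. Klra4 read 600.3 with Cd74, 1437 with Tmem54 and 1186 with the empty vector (-1.18), and its probe shares 51 of 60 bases with that of Klra7. All 5 measured Tceal genes, elongation factor relatives, lay below 0, and Tceal5 read 4559 with Cd74, 11866 with Tmem54 and 9258 with the empty vector (-1.30). Both measured Ifi27l2 genes were past 2-fold, with Ifi27l2a at 572 with Cd74, 1587 with Tmem54 and 1407 with the empty vector (-1.40).

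S100a4, a calcium-binding protein of motile cells, was the only one of 12 measured S100a genes past 2-fold, at 12519.7 with Cd74, 35445 with Tmem54 and 30036 with the empty vector (-1.43). Of 10 measured Sprr genes, which encode proteins of the cornified envelope, 2 were at least 2-fold higher, Sprr2h at 2.13 and Sprr2e at 2.13, and 1 lower, Sprr2a3 at -1.78, with a median of 0.09. The Wnt target Lgr5 and its partner Rnf43, a ubiquitin ligase for Wnt receptors, had -1.19 and -1.16. The transcription factor Maf had -1.41. F3, the tissue factor that starts coagulation, read 1299 with Cd74, 552 with Tmem54 and 586 with the empty vector (1.31), and Gch1, the first enzyme of tetrahydrobiopterin synthesis, read 6023 with Cd74, 2953 with Tmem54 and 3713 with the empty vector (1.10). Of 131 measured olfactory receptor genes, 3 were at least 2-fold higher and 1 lower, with a median of 0.01. Most of these receptor genes lay below the bright limit. Among the dimmest group of all genes 4.72% were past 2-fold, so nothing about the receptor family can be read from these counts.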
